A study of Danio rerio with 3 samples.

Results

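Glutamine synthetase and the enzymes of glutamate form a short set that makes and uses the amino acids glutamine and glutamate. Their genes were followed in muLECs, the mural lymphatic endothelial cells of the adult zebrafish brain, for which 3 libraries of 1 group were available. Members were taken by gene symbol, which gave 9 of the 32105 gene IDs in the count table. Described here are 7 of them, the 3 rows named GLUL or glulc, the 2 rows named GLS2, and glud1a and glud1b. The set was chosen by the read counts of GLUL in these same 3 libraries, already known to be high. Its levels are therefore given as a description, and no test result is given for any of them. Rows with enough reads still entered the fit over all genes. All fish were wildtype adults carrying a lyve1 DsRed reporter, a red fluorescent protein whose expression follows a lymphatic and venous endothelial gene. Red cells were sorted from brains dissociated with the enzyme blend Liberase, the RNA was amplified, and each library pooled 6 brains. No other cell population or treatment belongs to the group, so all comparisons are between genes or between libraries.

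Glutamine synthetase joins ammonia to glutamate and thereby makes glutamine. Glutamate dehydrogenase turns glutamate into the citrate cycle intermediate 2-oxoglutarate. In the mammalian brain glutamine synthetase is best known from astrocytes, which take up released glutamate through the carriers SLC1A2 and SLC1A3, convert it and hand glutamine back to neurons. muLECs lie in the meninges beside blood vessels and are known in zebrafish for taking up large molecules through scavenger receptors such as Mrc1 and the stabilins.

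The libraries held 34307745 to 36044297 reads in genes, and 11814 to 13593 genes had at least 1 read in a library. Defining genes of the sorted population were present in every library, with MRC1 at 143178 to 154604 reads, stab2 at 15665 to 27145 and the reporter's own gene lyve1b at 14590 to 26265. PROX1, the lymphatic identity factor, had 614, 1213 and 1 reads in replicates 1, 2 and 3, and the endothelial cadherin gene cdh5 had 0, 3 and 0. The nuclear RNA malat1 took 21.1% to 33.3% of the reads of a library. Levels are CPM, the reads of a gene relative to the size of its library, with edgeR's TMM scaling unless stated. They were not divided by transcript length, so CPM values of different genes are not set in order, and ratios between genes are ratios of reads.

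A single glutamine synthetase row carried most reads of the 7 rows. GLUL (ENSDARG00000099776) had 1675239 reads in replicate 1, 1669576 in replicate 2 and 1823419 in replicate 3. These were 4.65%, 4.75% and 5.31% of all reads of the libraries. By number of reads GLUL stood at rank 3, 2 and 3 among all genes, behind malat1 in each library and behind epd, an ependymin gene, in replicates 1 and 3. Its level was 49442 CPM ± 8834 (SD, n = 3), with 44350, 59643 and 44334 CPM in replicates 1, 2 and 3. Replicate 2 was highest on this scale, whereas with plain library size the values were 46477, 47473 and 53149 CPM and replicate 3 was highest. Which library held most GLUL therefore changes with the scaling. In bulk RNA, the number of cells that hold a transcript and the amount per cell cannot be told apart.

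The other glutamine synthetase rows were far smaller in reads. The second GLUL row (ENSDARG00000100003) had 14892, 13280 and 19410 reads, a level of 447 CPM ± 45.6 (SD, n = 3). In every library GLUL ENSDARG00000099776 exceeded it, by 112, 126 and 93.9 reads to 1. The third copy, glulc (ENSDARG00000013227), had 4 reads in each of the 3 libraries, just over the floor of 3 reads that a count of 0 allows. Of all glutamine synthetase reads, 99.1% ± 0.134 fell on ENSDARG00000099776. How reads shared by near-identical copies were counted is not stated in these sources, so the small counts of the other copies are the less certain part. The symbol table does not say which GLUL row is glula and which is glulb.

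Both GLS2 rows, ENSDARG00000069095 and ENSDARG00000002917, whose mammalian counterpart in liver frees ammonia from glutamine, had 0 reads in every library, which allows up to 0.0832, 0.0853 and 0.0874 CPM of plain library size. These limits cover counting error only, since amplified reads are not independent molecules. GLS2 was not detected at this depth.

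Glutamate dehydrogenase was represented mainly by glud1b. The gene glud1b (ENSDARG00000101074) had 6345, 3168 and 4136 reads, a level of 127 CPM ± 35.8 (SD, n = 3), and was highest in replicate 1. Its partner copy glud1a (ENSDARG00000008816) had 824, 8 and 388 reads, a level of 10.5 CPM ± 10.8. Almost no glud1a was seen in replicate 2, and the mean without that library was 15.6 CPM, against 4.86 CPM without replicate 1. The share of glud1 reads that fell on glud1b was 88.5%, 99.7% and 91.4%, so glud1b led in all 3 libraries.

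**Figure D1:**
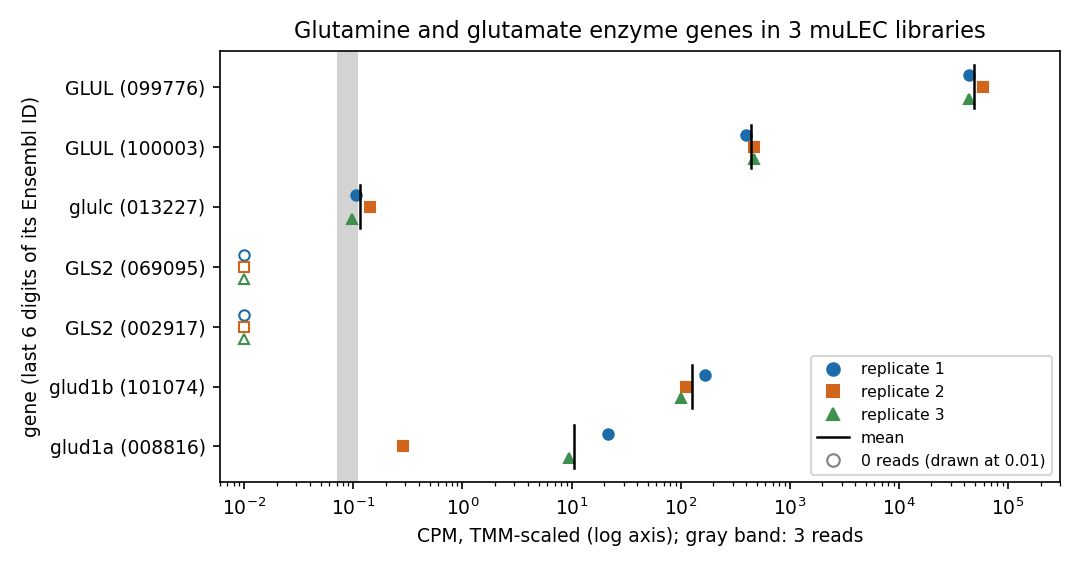
Level of each of the 7 enzyme gene rows described (y axis) in CPM scaled by TMM (x axis, log), with 1 symbol per library and a bar at the mean. GLUL ENSDARG00000099776 sits at 44334 to 59643 CPM in the 3 libraries, the second GLUL row at 394 to 474 CPM, glulc near the gray band of 3 reads, and both GLS2 rows at 0 reads.

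Glutamine synthetase reads outnumbered those of glutamate dehydrogenase in every library. Reads of its 3 rows together were 99.6%, 99.8% and 99.8% of the reads of the 7 rows. For each glutamate dehydrogenase read there were 236, 530 and 407 glutamine synthetase reads in replicates 1, 2 and 3. The highest and lowest of these ratios differed 2.25-fold. The summed reads of glutamine synthetase alone ran from 1682860 to 1842833. Transcript length enters the ratio, but in the same way in every library.

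The GLUL rows varied less than the median gene of their level, by an amount that changed with the scaling. GLUL ENSDARG00000099776 had a coefficient of variation of 0.179 over the 3 libraries, against a median of 0.435 for the 74 genes of at least 1000 CPM, itself included, and 10 of these varied less. GLUL ENSDARG00000100003 had 0.102, against a median of 0.313 for the 313 genes from 200 to 1000 CPM, and 28 varied less. With plain library size the coefficients of these rows were 0.0734 and 0.221, against medians of 0.372 and 0.270. With DESeq2 size factors they were 0.325 and 0.190, against medians of 0.469 and 0.416, so each row lay under its median with all 3 scalings. The coefficient was 0.282 for glud1b, against a median of 0.420 for the 996 genes from 50 to 200 CPM. That of glud1a was 1.03, against 0.875 for genes from 10 to 50 CPM. Of the 7 rows, 4 reached 10 reads in at least 2 libraries, as did 22.1% of all gene IDs.

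**Figure D2:**
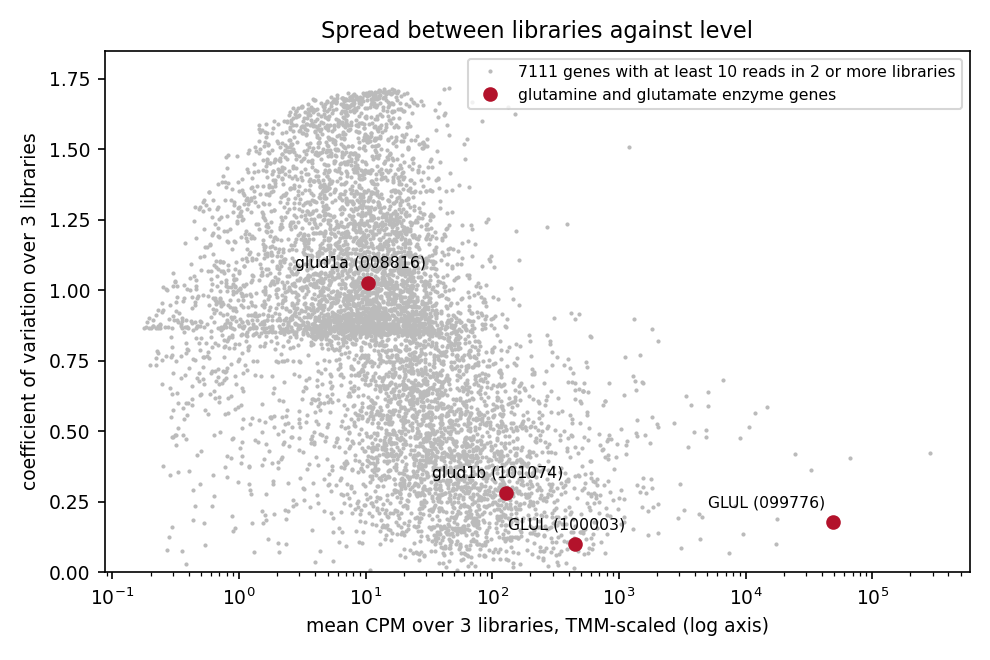
Coefficient of variation over the 3 libraries (y axis) against mean CPM scaled by TMM (x axis, log) for the 7111 genes with at least 10 reads in 2 or more libraries (gray) and the 4 described enzyme gene rows among them (red). With this scaling the GLUL rows lie low for their level, at 0.179 and 0.102, while glud1a lies at 1.03.

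Since GLUL is known above all as a glial gene, its reads were set against markers of the sorted cells and of other brain cells. GLUL ENSDARG00000099776 had 11.7, 11.2 and 11.8 reads for each read of MRC1, a mannose receptor gene that leads the lymphatic and endothelial list. The highest and lowest of these ratios differ by 1.05-fold. Among the 73 other genes of at least 1000 CPM the same measure had a median of 2.20-fold, and MRC1 ranked 2 from the steadiest. The steadiest was cnbpb, and the mitochondrial genes MT-CO1 and MT-ND5 and then selenop came next after MRC1. Steadiness against GLUL was thus not limited to genes of the lymphatic list. The ratio to MRC1 was looked at after the values were known and is a description of 3 libraries. Other genes of the lymphatic list with at least 50 CPM followed GLUL less closely. The ratio differed by 1.15-fold between libraries for stab1, 1.31-fold for FLT4, 1.48-fold for NR2F2, 1.59-fold for stab2 and 1.69-fold for lyve1b. Ratios for genes of this list under 50 CPM were not taken. Reads were uneven for PROX1 (614, 1213 and 1), lyve1a (0, 976 and 754) and mrc1b (2, 1219 and 318). They were less so for KDR (680, 452 and 315), and very low for kdrl and cdh5.

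Genes listed as markers of radial glia, the astroglia of the zebrafish brain, split into some near 0 and some well read. GFAP, the glial filament gene, had 0, 1 and 0 reads, AQP4, a water channel gene of astrocyte end feet, had 1, 0 and 0, and the stem cell factor gene SOX2 had 1, 0 and 0. The glial glutamate carrier genes were low as well, SLC1A2 (ENSDARG00000102453) with 46, 0 and 2 reads and SLC1A3 (ENSDARG00000043148) with 82, 0 and 0, and their other copies had 0 reads. Other genes of the same list were well above the floor. ATP1B4 had 19048, 24382 and 17562 reads, the connexin gene GJA1 had 9533, 25395 and 7363, ID1 had 6888, 3458 and 6365, and the fatty acid binding protein gene FABP7 (ENSDARG00000007697) had 1740, 8493 and 2947. Of the 15 rows of the list, 3 had no read. In at least 2 libraries 6 of the rows reached 10 reads, against 25.8% of all gene IDs with a symbol. The summed level of the 15 rows was 990, 2241 and 835 CPM, highest in replicate 2, where the scaled level of GLUL was also highest. With this TMM scaling the same replicate was highest for the summed lymphatic and endothelial list, at 5527, 7136 and 5579 CPM. Among its genes of at least 50 CPM, MRC1, FLT4 and stab1 were highest in replicate 2. In contrast, stab2 (626, 560 and 660 CPM), lyve1b (656, 521 and 639 CPM) and NR2F2 were lowest there. Replicate 2 was also highest for the neuronal, oligodendrocyte and mural lists, while the macrophage and microglia list was highest in replicate 3. List sums were not taken with other scalings. In unscaled reads, MRC1 (143178, 148871 and 154604), FLT4 (7173, 8030 and 10250) and stab1 (6116, 6982 and 7248) were highest in replicate 3. GLUL ENSDARG00000099776 was highest in replicate 3 by reads too. ATP1B4, GJA1 and FABP7 of the radial glia list were highest in replicate 2 in reads as well, and ID1 in replicate 1. GLUL reads per summed read of the radial glia list were 44.8, 26.6 and 53.1, a 1.99-fold range. The part of glial RNA in the GLUL level was not tested.

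Summed markers of the remaining brain cells varied more against GLUL than did MRC1. GLUL reads per summed read of the list differed 1.05-fold between libraries for the lymphatic and endothelial list, most of whose reads are MRC1. The range was 2.37-fold for neurons, 2.63-fold for oligodendrocytes, 3.17-fold for mural cells and 8.72-fold for macrophages and microglia. For the highest single gene of the radial glia list, ATP1B4, the range was 1.52-fold, less than for stab2 and lyve1b. It was 2.41-fold for GNG3 (neurons), 2.73-fold for mbpa (oligodendrocytes), 5.85-fold for cd74a (macrophages and microglia) and 26.0-fold for RGS5 (mural cells). Ranges for the other single genes of these lists were not taken, and some, such as plp1b, were fairly even in reads between libraries. The comparison with lymphatic genes is thus limited to the sums and the highest genes. Summed levels were 72.1 to 230 CPM for 18 neuronal rows, 677 to 2391 CPM for 9 oligodendrocyte rows, 228 to 970 CPM for 10 mural rows and 123 to 1076 CPM for 24 macrophage and microglia rows. The neuronal gene ELAVL3 had 1, 0 and 1 reads, the mural receptor gene PDGFRB 1, 0 and 0, and the leukocyte gene ptprc 8, 1 and 237. Other genes of these lists were high, such as the neuronal gene GNG3 with 1607, 3855 and 2578 reads, the myelin gene mbpa with 21711, 59025 and 28106, RGS5 with 5590, 18235 and 765, and the antigen presentation gene cd74a with 3530, 6890 and 22496. The next highest were uneven in the neuronal list, SNAP25 (ENSDARG00000020609) with 229, 970 and 621 reads and nefla with 18, 1006 and 10. Among myelin genes plp1b had 3630, 2798 and 3081 reads and mbpb 91, 4882 and 485. The smooth muscle gene TAGLN (ENSDARG00000033466) had 8487, 7724 and 5372 and rgs5b 591, 1195 and 3185, and in the macrophage list cd74b had 58, 306 and 15963 and MPEG1 (ENSDARG00000055290) 2, 1663 and 2028. These marker genes peaked in different libraries.

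**Figure D3:**
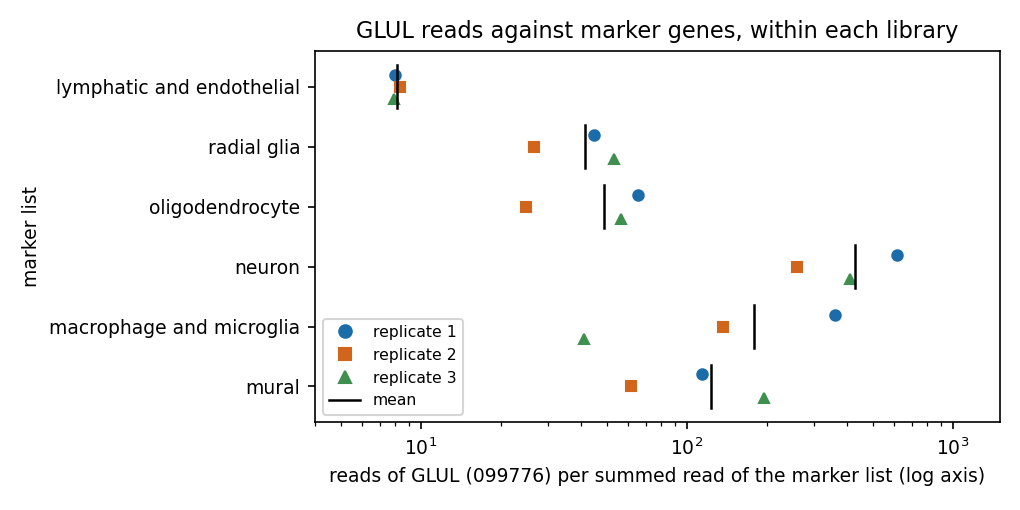
Reads of GLUL ENSDARG00000099776 per summed read of each marker list (x axis, log), within each of the 3 libraries, with a bar at the mean. No scaling enters these ratios. The lymphatic and endothelial values lie together at 7.95 to 8.36, while those of the macrophage and microglia list run from 41.2 to 359.

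Genes whose levels followed GLUL most closely over the 3 libraries were sought among the 1382 other genes of at least 50 CPM. Likeness was the distance between profiles of log2(CPM + 1), each centred on the gene's own mean. The closest were DPP7, a lysosomal peptidase gene, at a distance of 0.026, the ribosomal protein gene RPL10 at 0.027, and thy1, TXNIP and the elongation factor gene eef2b at 0.035 each. DPP7 stood at 155, 206 and 151 CPM and TXNIP at 329, 457 and 331 CPM in replicates 1, 2 and 3. The second GLUL row ranked 170 at a distance of 0.30. A profile of 3 libraries has few points, and nothing is read from these names beyond the distance.

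Genes around the enzymes were taken from 6 lists with 100 rows in all, of which 36 reached 10 reads in at least 2 libraries, against 25.8% of all gene IDs with a symbol, and 21 had no read in any library. An edgeR quasi-likelihood test asked which of the 7111 genes with such counts stood above or below the median gene in reads, at a Benjamini-Hochberg adjusted p under 0.05. It called 23.4% of all tested genes above and 1.24% below. Of the 36 list genes, 9 were called above the median gene (25%), a share near that of all genes with this filter. Called below were 0 (0 at an unadjusted p under 0.05, 0 with DESeq2, 5 with limma-trend). The 5 with limma-trend were GAD2, KYAT3, ALDH5A1, prodha and RHAG. Over all 7111 tested genes the counts below were 250 at an unadjusted p under 0.05 with edgeR, 0 with DESeq2 and 1042 with limma-trend. DESeq2 gave no adjusted p for 4825 of these genes, among them list genes such as SLC38A3, CAD and RHAG. Its counts of 0 below therefore do not cover those genes. At an unadjusted p under 0.05, DESeq2 placed 75 of all tested genes below. The median log2 ratio of the 36 was 0.44, against 0.22 over all tested genes. The ratio compares reads, and a long transcript raises it.

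The list for carriers of glutamine and large neutral amino acids split into a few well-read genes and many near 0. SLC3A2, the heavy chain that several amino acid carriers need, had 18508, 17578 and 12410 reads, which is a log2 ratio of 5.28 ± 0.32 against the median gene (SE; edgeR adjusted p = 1.42e-11). SLC38A2, a sodium-coupled carrier of glutamine and other neutral amino acids, had 4117, 6233 and 3689 reads (3.53 ± 0.40, adjusted p = 1.27e-07, edgeR). SLC7A8, a light chain that pairs with SLC3A2, had 990, 1487 and 3569 reads (2.16 ± 0.54, adjusted p = 0.00119, edgeR), highest in replicate 3, and without that library its ratio was 0.49 and not called. These 3 were the genes called above the median gene among 6 tested of 16 rows, against 23.4% of all tested genes. SLC38A3, a glutamine carrier of astrocytes and liver in mammals, had 598, 7 and 1426 reads and did not pass, nor did SLC38A9 with 782, 5 and 179. SLC1A5 had 0, 2 and 0 reads and SLC7A5 had 0, 0 and 2.

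None of the 21 rows for glutamate carriers reached 10 reads in 2 libraries, a count reached by 25.8% of all gene IDs with a symbol. The best read of them was SLC25A12, a mitochondrial aspartate and glutamate carrier, with 6, 3 and 416 reads. The cystine and glutamate exchanger gene slc7a11 had 1, 1 and 52 reads and SLC1A7 had 11, 0 and 0. The plasma membrane and vesicular glutamate carriers together with these summed to 4.08, 0.286 and 11.5 CPM. Of these rows, 6 had no read in any library.

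Among other glutamate enzymes, ABAT had the most reads in every library. ABAT, the transaminase that breaks down the transmitter GABA and yields glutamate, had 2247, 6985 and 3504 reads, a log2 ratio of 3.45 ± 0.46 (adjusted p = 7.04e-07, edgeR). It was highest in replicate 2 and well read in all 3 libraries. Among 13 tested of 25 rows it was the only gene called above the median gene, against 23.4% of all tested genes. GAD1 (ENSDARG00000027419) and GAD2, which make GABA from glutamate, had 6, 4 and 1 and 12, 38 and 51 reads. The mitochondrial aspartate aminotransferase copies did not pass, GOT2 with 2226, 22 and 1369 reads and got2b with 659, 1509 and 701. Nor did the alanine aminotransferase gene GPT (ENSDARG00000019541) with 1155, 354 and 723, or GCLC, which uses glutamate for glutathione, with 3, 2303 and 96.

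One enzyme that spends glutamine was well read in every library. GMPS, which uses the amide nitrogen of glutamine to make GMP, had 11138, 16219 and 7747 reads, a log2 ratio of 4.87 ± 0.36 (adjusted p = 2.10e-10, edgeR). It was the only gene called above the median gene among 7 tested of 16 rows, against 23.4% of all tested genes. CAD, which opens pyrimidine synthesis with glutamine, was even at 703, 630 and 674 reads but did not pass, with a ratio of 0.64 ± 1.02. The CTP synthase rows named CTPS1 had most of their reads in a single library, ENSDARG00000030700 with 7, 1264 and 3 reads and ENSDARG00000098386 with 1361, 11 and 27. NIT2, an omega-amidase, had 1091, 8 and 474 reads and did not pass. ASNS, the asparagine synthetase, had 123, 3 and 0 reads, and the hexosamine enzyme genes GFPT1 and GFPT2 had none.

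Genes that handle ammonia, the other substrate of glutamine synthetase, were low or uneven. Of 12 rows for ammonia channels and the urea cycle, 3 were tested and none passed by edgeR (0 at an unadjusted p under 0.05 below the median), while limma-trend called RHAG below, at a log2 ratio of -2.21. Over all tested genes edgeR called 23.4% above and 1.24% below. ARG2, the mitochondrial arginase gene, had 6, 2843 and 279 reads. The ammonia channel genes RHBG and RHAG had 618, 5 and 244 and 184, 2 and 94 reads, both lowest in replicate 2. ASL had 0, 0 and 234 reads and RHCG (ENSDARG00000100265) had 68, 0 and 0.

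In mammals glutamine synthetase is raised by glucocorticoids and, when glutamine is plentiful, is marked for breakdown by the cereblon ubiquitin ligase and the segregase VCP. Of 10 rows for these steps 7 were tested, of which 4 were called above the median gene and 3 did not pass. Over all tested genes 23.4% were called above. The list is short, and its share was not tested. The glucocorticoid-induced genes tsc22d3 and FKBP5 had 3371, 6073 and 5554 reads (log2 ratio 3.59 ± 0.38, adjusted p = 6.80e-08, edgeR) and 5413, 2382 and 2198 reads (2.93 ± 0.43, adjusted p = 4.21e-06, edgeR). VCP had 1568, 2347 and 3964 reads (2.59 ± 0.46, adjusted p = 4.10e-05, edgeR), with a ratio of 1.15 and no call without replicate 3. The glucocorticoid receptor gene NR3C1 had 911, 3397 and 1074 reads, a ratio of 2.26 ± 0.64 (adjusted p = 0.00290, edgeR) that was 0.56 without replicate 2 and 1.32 without replicate 3, neither of which was called. CUL4B did not pass with 112, 999 and 1295 reads. CRBN, the cereblon gene, had 584, 6 and 0 reads, DDB1 had 3, 2 and 255, and CUL4A had none.

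**Figure D4:**
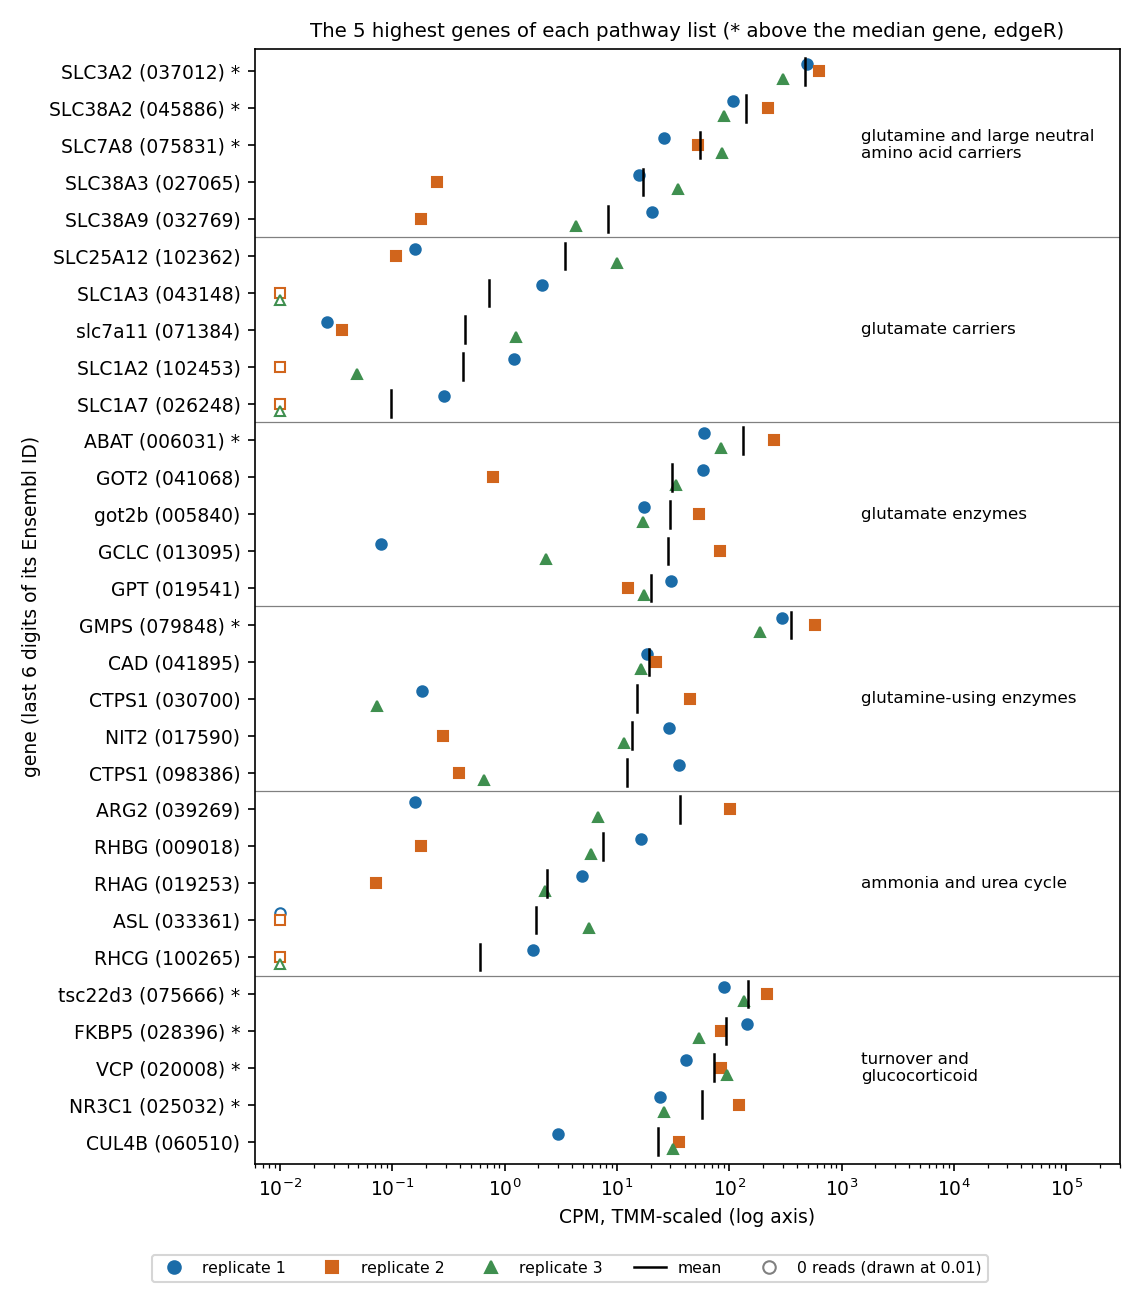
Level in CPM scaled by TMM (x axis, log) of the 5 highest genes of each of 6 pathway lists (y axis), with 1 symbol per library, a bar at the mean and an asterisk where the edgeR test placed the gene above the median gene. SLC3A2, SLC38A2, ABAT, GMPS and tsc22d3 are well read in all 3 libraries, whereas the glutamate carriers lie at or near 0 in most.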

How the data were processed

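RNA-seq of 3 muLEC libraries was used. The values deposited by the authors are raw counts per Ensembl gene ID. The submitters' processing notes name bcl2fastq, R 3.2.2 and the GRCz10 build, while no aligner, counter or strand setting is stated in these sources. The columns bear another cell name and were matched to samples by replicate number. A deposited YuGene transform of the same counts was not used. Symbols came from a gene name table (26269 IDs matched). A listed name matched a symbol that equals it, ignoring case, or equals it plus a, b or c, so the entry coro1 also took coro1b and CORO1C rows. No transcript lengths or sequences were used. Results for 2 of the 9 member rows are not reported here.

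TMM factors were 1.05, 0.796 and 1.20. An intercept-only fit with edgeR 4.0.16 covered genes that reached 10 reads in 2 or more libraries, and its offset was the log median count of those genes in each library. glmQLFTest refuses a design of 1 column, so its steps were written out and tested on simulated data. Standard errors came from the fitted information. DESeq2 1.42.0 and limma-trend (limma 3.58.1, log2(CPM + 1)) were alternatives. The libraries are separate pools of 6 brains. A p-value sets a gene's distance from the median gene against the spread between these pools, estimated with information shared across genes. A gene that is even between libraries can therefore have a wide standard error. CAD, at 19.2 CPM ± 3.10 (SD, n = 3), had a standard error of 1.02 on the log2 ratio. Amplified reads are not independent molecules, so the floor of 3 reads covers counting error only. In each list the 5 genes with the highest mean were named, and of each marker list the 3 highest with a preset group of defining genes. Chosen after their values were seen were SLC1A5, SLC7A5, GAD1, GAD2, ASNS, GFPT1, GFPT2, CRBN, DDB1, CUL4A, KYAT3, ALDH5A1, prodha, AQP4, SOX2, FABP7, cdh5, FLT4, stab1 and NR2F2. The same holds for lyve1a, mrc1b, KDR and kdrl. The members and lists were chosen with earlier results of these data known.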

Additional observations from a re-analysis of the deposited data

How the results depend on the processing

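The level of the 3 glutamine synthetase rows together, 49889 CPM ± 8858 (SD, n = 3), was 49485 CPM with plain library size and 48782 CPM with DESeq2 size factors. It was 80696 CPM when malat1, mitochondrial and member reads were left out of the totals, which lowers every total by construction. Leaving out each library in turn gave 44775 to 52461 CPM, and a share of 99.67% to 99.78% of the reads of the 7 rows. No paired analysis was possible because all libraries belong to a single group. Alternatives per coding length were not run, since no transcript or protein lengths were used.

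Of 36 list genes, 9 were called above the median gene with edgeR, DESeq2, limma-trend and TMM library sizes. Over all 7111 genes these settings called 1666, 1489, 1632 and 1530, in the same order. With 10 reads required in all 3 libraries, 7 of 21 were called (all genes 1040 of 4108). Without replicate 1, 2 or 3 it was 9 of 24, 9 of 33 and 6 of 21. All genes then gave 1178 of 5065, 1580 of 5818 and 937 of 4444. With no filter it was 46 of 79 (all genes 8404 of 18455), and the median gene had 3, 1 and 17 reads. DESeq2 gave no adjusted p for 4825 of the 7111 genes.

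Of the 22 named list genes with a test, those called above the median gene kept that direction under every alternative that tested them, and SLC7A8, VCP and NR3C1 lost the call in the cases given above or with 10 reads required in all 3 libraries (0.98 for SLC7A8 and 0.90 for NR3C1). Genes that did not pass changed side as follows, on the log2 ratio, and the cause was not tested. With limma-trend the ratio was -0.47 for SLC38A3, -1.04 for GCLC, -0.69 for NIT2 and -0.48 for ARG2, and with TMM library sizes -0.080 for NIT2. With 10 reads in all 3 libraries it was -0.031 for got2b, -0.46 for GPT, -0.59 for CAD and -0.31 for CUL4B. With no filter it was 6.53 for SLC38A9, 7.28 for CTPS1 ENSDARG00000098386, 6.23 for RHBG and 4.52 for RHAG. With a library left out it ran from -0.17 to 1.42 for GOT2, from -0.51 to 0.48 for GPT, from -0.42 to 0.034 for CAD, from -5.34 to 0.047 for CTPS1 ENSDARG00000098386 and from -0.61 to 0.58 for CUL4B. Calls were gained by GOT2, above without replicate 2, by CTPS1 ENSDARG00000098386, below without replicate 1, and by RHAG, below with limma-trend (-2.21, adjusted p = 0.0391, against 0.604 with edgeR and 0.000893, above, with no filter). With no filter, 9 genes that had not passed kept their side and were called above, as were the 4 that changed side. The scalings of the coefficient of variation were added after the data were seen.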
